A study of Arabidopsis thaliana with 6 samples.

Results

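A group of 64 probe sets was low on TOC1-ox arrays 1 and 2 and near the wild-type level on TOC1-ox array 3. A probe set is the group of array probes that reads 1 transcript. The members were chosen from the measured values themselves: TOC1-ox replicates 1 and 2 each lay at least 1.5 log2 units below the lowest wild-type (WT) value, and TOC1-ox replicate 3 lay no more than 0.5 below it. The rule was met by 67 of 22746 probe sets, 3 of which belong to a list of 7 items that was left out, and the 64 members are 0.281% of the total. The platform annotation lists a single gene for 36 of them, which stand for 35 genes because AT1G31690 is read by 2 members. It lists no gene for the other 28.

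The study compared Arabidopsis thaliana seedlings that overexpress TOC1 (TOC1-ox) with WT seedlings, both of ecotype Col0, on 3 Affymetrix arrays per group that the series describes as biological replicates. All seedlings were 12 days old, had been kept on MS3 medium in days of 12 h light and 12 h dark, and were harvested at zeitgeber time 15, in the dark. The sources used here do not give the promoter, the construct or the number of lines behind TOC1-ox. Each array read the RNA of whole seedlings, so fewer cells of a type and less RNA per cell cannot be told apart.

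TOC1 is a core component of the plant circadian clock. It accumulates in the evening and represses the transcription of morning and daytime clock genes, and plants that overexpress it have a disturbed clock. Many genes of photosynthesis, hormone response and stress response are clock-controlled, so the phase of the clock at harvest bears on their level.

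TOC1-ox array 3 stood apart from the other TOC1-ox arrays over the whole table. It correlated at r = 0.9767 and 0.9785 with TOC1-ox arrays 1 and 2, which correlated with each other at 0.9965. With WT arrays 1, 2 and 3 it correlated at 0.9758, 0.978 and 0.9809. Each of these correlations is taken over probe sets, not over independent samples. The bacterial transcripts spiked in to control the labelling had a median log2 value of 3.70, 4.37 and 7.01 on TOC1-ox arrays 1, 2 and 3, against 4.84, 2.81 and 7.59 on WT arrays 1, 2 and 3, so both arrays numbered 3 were high. For 6 control transcripts the 3′ signal exceeded the 5′ signal, a gap that widens as RNA is degraded, by a mean log2 of 1.43, 1.38 and 1.25 in TOC1-ox and 1.43, 1.33 and 1.26 in WT. The part of these values in the results was not tested. Measured cell type markers were few (12 of 113), and limma called 0 of them (3 at an unadjusted p under 0.05). The summed linear level of 4 of 14 guard cell and stomatal lineage markers was 843 to 1263 in TOC1-ox and 1729 to 2585 in WT. Most of this sum was STOMAGEN, whereas FMA, a guard cell marker of the same list, lay higher on all 3 TOC1-ox arrays, at 6.62, 6.98 and 6.61 on the log2 scale, against 6.33, 6.44 and 5.74 in WT. For 2 of 12 root hair markers it was 319 to 556 in TOC1-ox and 173 to 289 in WT. The only measured seed marker of 19, BETA-VPE, stood at 98.2, 101.5 and 19.4 in TOC1-ox replicates 1, 2 and 3, against 121.9 to 192.8 in WT. MUTE, a stomatal marker, lay near the bottom of the scale on every array, at 2.61, 2.61 and 3.22 in TOC1-ox and 2.6 to 2.7 in WT on the log2 scale. Their part in the members' values was not tested either.

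All values below are the deposited log2 levels unless a difference is named. On this scale 1 unit is a 2-fold step, and values under about 4 lie near the bottom, where differences are compressed. The mean of TOC1-ox replicates 1 and 2 lay 1.66 to 5.07 log2 units below the WT mean over the 64 members, with a median of 2.34. As a linear ratio that is 3.2-fold to 33.5-fold lower, with a median of 5.08-fold. This distance was part of the choice and is given as a description. Measured from the lowest WT value, the mean distance of replicates 1 and 2 was 1.52 to 4.46, with a median of 1.98, and 34 members lay under 2 and 6 over 3.

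The members were well expressed in WT. Their WT means ran from 4.51 to 13.38 with a median of 8.65, against a median of 6.19 over all probe sets. A WT mean of at least 10 was found for 17 of the 64 (26.6%), against 9.54% of all probe sets, and a WT mean under 4 for 0 members, against 36.7% of all. The rule asks for room below WT, and dim probe sets have little of it, so these shares partly follow from the rule. In TOC1-ox replicates 1 and 2 the mean lay under 4 for 15 members (23.4%), where the distance from WT is understated.

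**Figure D1:**
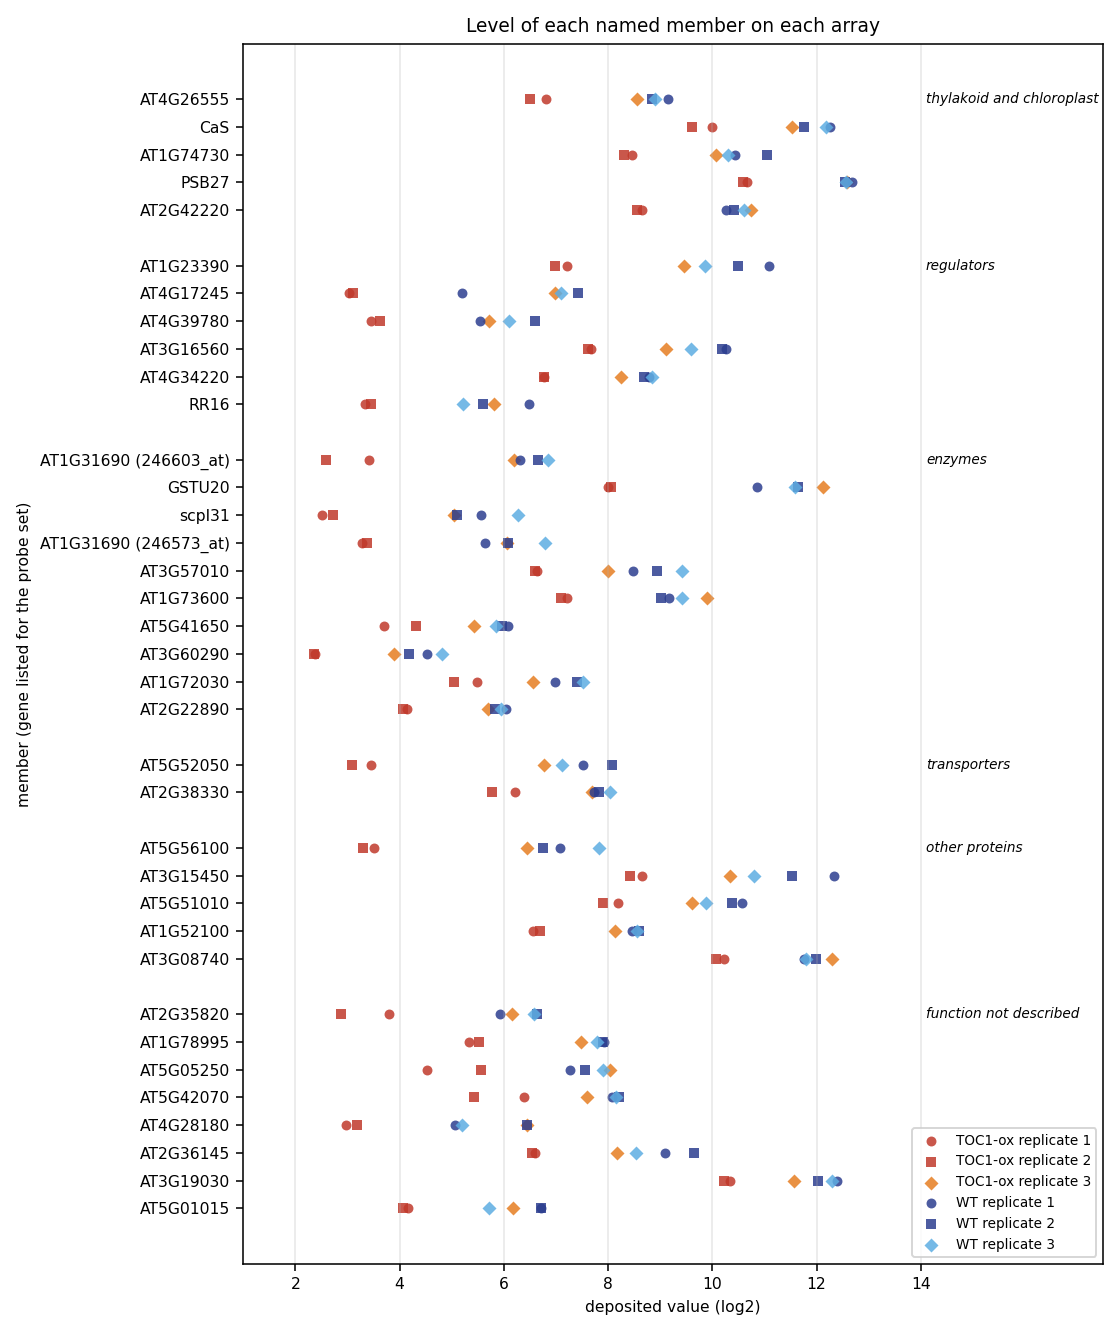
Deposited log2 value (horizontal axis) of the 36 members with a listed gene (vertical axis, grouped by role), 1 point per array; TOC1-ox replicates 1 and 2 are red, TOC1-ox replicate 3 orange and WT blue. In every row the red points lie at least 1.5 below the lowest blue point and the orange point lies no more than 0.5 below it, which is the rule that chose the members.

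Genes of the thylakoid and chloroplast made up 5 of the 36 named members. The role groups used here were formed after the values were seen, and no group was tested. Their shares over all named probe sets were not counted. PSB27, a thylakoid lumen protein that takes part in the assembly and repair of photosystem II, had 10.66, 10.58 and 12.58 in TOC1-ox replicates 1, 2 and 3, against 12.68, 12.55 and 12.57 in WT replicates 1, 2 and 3. Replicates 1 and 2 of TOC1-ox were low and close together, while replicate 3 lay inside the narrow WT range. CaS, a thylakoid calcium-sensing protein needed for stomatal closure by external calcium, had 10.002, 9.62 and 11.52 in TOC1-ox, against 12.25, 11.76 and 12.19 in WT. Here all 3 TOC1-ox values lay below all WT values, replicate 3 by only 0.24.

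AT1G74730, a thylakoid protein that acts in the stacking of grana and in non-photochemical quenching, had 8.45, 8.30 and 10.07 in TOC1-ox and 10.44, 11.05 and 10.31 in WT. AT4G26555, an FKBP-type peptidyl-prolyl isomerase, had 6.81, 6.51 and 8.55 in TOC1-ox and 9.16, 8.84 and 8.91 in WT. In both genes the groups did not overlap, and replicate 3 of TOC1-ox lay much nearer to WT than to its own group. AT2G42220, a chloroplast protein with a rhodanese domain, had 8.65, 8.55 and 10.75 in TOC1-ox and 10.27, 10.42 and 10.61 in WT. Its replicate 3 was the highest of the 6 arrays.

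Regulatory and signalling proteins were listed for 6 members. AT1G23390, a kelch-repeat F-box protein that marks chalcone synthase, the entry enzyme of flavonoid synthesis, for degradation, had 7.22, 6.98 and 9.46 in TOC1-ox, against 11.08, 10.49 and 9.87 in WT. The groups did not overlap, although the WT values were themselves spread over 1.22 log2 units. AT4G17245, a RING/U-box protein, had 3.03, 3.11 and 6.97 in TOC1-ox and 5.20, 7.43 and 7.09 in WT. Replicate 1 was by far the lowest of its WT values, and TOC1-ox replicate 3 lay inside the WT range.

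AT4G39780, a transcription factor of the AP2/ERF family, had 3.45, 3.62 and 5.71 in TOC1-ox, against 5.53, 6.60 and 6.09 in WT. RR16, a type-A response regulator that is induced by cytokinin and damps the cytokinin signal, had 3.34, 3.44 and 5.81 in TOC1-ox and 6.49, 5.6 and 5.22 in WT. Both were near the bottom of the scale in TOC1-ox replicates 1 and 2 and inside the WT range in replicate 3. RR16 was 1 of 2 measured genes of 37 on a cytokinin response list; the other, its relative ARR15, was near the bottom on all arrays, at 2.4 to 2.66 in TOC1-ox and 2.66 to 3.44 in WT.

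AT3G16560, of the type 2C protein phosphatase family, had 7.66, 7.61 and 9.11 in TOC1-ox and 10.25, 10.18 and 9.60 in WT. AT4G34220, a leucine-rich repeat receptor kinase, had 6.77, 6.77 and 8.25 in TOC1-ox and 8.79, 8.68 and 8.85 in WT. Both stayed below WT on all 3 TOC1-ox arrays, with replicate 3 only 0.49 and 0.43 under the lowest WT value.

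Enzymes formed the largest named group, with 10 members for 9 genes. GSTU20, a tau-class glutathione transferase that binds the jasmonate-conjugating enzyme FIN219/JAR1, had 8.0, 8.05 and 12.13 in TOC1-ox and 10.86, 11.65 and 11.60 in WT. TOC1-ox replicates 1 and 2 agreed within 0.06 and lay far below WT, and replicate 3 was the highest of all arrays, 4.11 above their mean. GSTU20 lies in a row of related tau-class genes, and whether its probes also read a relative was not tested. On the list of aliphatic glucosinolate genes it was 1 of 2 measured genes of 31, beside AOP3, which lay at the bottom of the scale on all 6 arrays (2.54 to 2.56 in TOC1-ox and 2.52 to 2.63 in WT).

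AT1G31690, of the copper amine oxidase family, is read by 2 probe sets, and both were members. The probe set 246603_at had 3.40, 2.59 and 6.20 in TOC1-ox, against 6.31, 6.66 and 6.84 in WT. The other, 246573_at, had 3.28, 3.38 and 6.05 in TOC1-ox and 5.64, 6.08 and 6.79 in WT. The readings agree that replicates 1 and 2 were low and that replicate 3 lay at the lower side of WT, just below the lowest WT value in the first and inside the WT range in the second. They read the same RNA samples and are no replicates of each other.

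The gene scpl31, which encodes a serine carboxypeptidase-like protein, had 2.5, 2.72 and 5.04 in TOC1-ox and 5.56, 5.11 and 6.27 in WT. AT1G73600, an N-methyltransferase of the type that makes phosphocholine from phosphoethanolamine, had 7.22, 7.10 and 9.90 in TOC1-ox and 9.17, 9.02 and 9.41 in WT. These sat at opposite ends, since replicate 3 was just below the lowest WT value for scpl31 and the highest of all arrays for AT1G73600. AT3G57010, related to strictosidine synthase, had 6.63, 6.60 and 7.99 in TOC1-ox and 8.48, 8.93 and 9.43 in WT. Of the named members its replicate 3 lay relatively farthest from WT, at 59.1% of the way from the mean of TOC1-ox replicates 1 and 2 to the WT mean.

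The other 4 enzyme genes shared 1 pattern, with replicate 3 below the lowest WT value by 0.14 to 0.44. AT5G41650, of the glyoxalase I family, lay on average 1.84 below the lowest WT value in TOC1-ox replicates 1 and 2, and AT3G60290, of the 2-oxoglutarate and iron-dependent oxygenase family, lay 1.81 below it. For AT1G72030, of the GNAT acetyltransferase family, this distance was 1.73, and for AT2G22890, related to the membrane desaturase FAD4, it was 1.72.

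Transporters of the MATE family, which export organic compounds and toxins, were listed for 2 members. AT5G52050, also known as DTX50, which carries abscisic acid out of the cell, had 3.45, 3.08 and 6.78 in TOC1-ox and 7.51, 8.08 and 7.12 in WT. It lay farthest below WT of the members with a gene, 19.8-fold in TOC1-ox replicates 1 and 2, which were near the bottom of the scale. Its replicate 3 lay 0.35 below the lowest WT value. AT2G38330, the other MATE gene, had 6.22, 5.78 and 7.70 in TOC1-ox and 7.73, 7.82 and 8.04 in WT, so replicate 3 came within 0.04 of the lowest WT value.

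Proteins of other kinds were listed for 5 members. AT5G56100, a glycine-rich protein annotated as oleosin-related, had 3.5, 3.29 and 6.45 in TOC1-ox and 7.07, 6.75 and 7.83 in WT. AT3G15450, which carries the YGL and LRDR motifs of aluminium-induced proteins, had 8.65, 8.43 and 10.33 in TOC1-ox and 12.33, 11.54 and 10.81 in WT. The groups did not overlap in either gene, and WT replicate 3 was the highest WT array for AT5G56100 and the lowest for AT3G15450. AT3G08740, of the elongation factor P family, had 10.22, 10.07 and 12.30 in TOC1-ox and 11.77, 12.00 and 11.80 in WT, with replicate 3 above every WT array. AT5G51010, a rubredoxin-like protein, and AT1G52100, a jacalin-related lectin, lay 1.84 and 1.83 below the lowest WT value in TOC1-ox replicates 1 and 2, and their replicate 3 lay 0.27 and 0.33 below it.

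For 8 genes no function is given here. AT2G35820 had 3.8, 2.87 and 6.15 in TOC1-ox and 5.93, 6.64 and 6.58 in WT. AT1G78995 had 5.33, 5.51 and 7.49 in TOC1-ox and 7.91, 7.90 and 7.79 in WT. The WT values of AT1G78995 differed by only 0.12, and all TOC1-ox values lay below them, whereas replicate 3 of AT2G35820 lay inside the WT range. AT5G05250 had 4.53, 5.57 and 8.04 in TOC1-ox and 7.26, 7.55 and 7.91 in WT. AT4G28180 had 2.98, 3.19 and 6.45 in TOC1-ox and 5.07, 6.44 and 5.20 in WT. Replicate 3 was the highest array for both, by a margin of 0.01 over WT replicate 2 for AT4G28180. AT5G42070 had 6.38, 5.42 and 7.60 in TOC1-ox and 8.08, 8.21 and 8.16 in WT, with no overlap. AT2G36145, AT3G19030 and AT5G01015 lay 1.98, 1.75 and 1.60 below the lowest WT value in TOC1-ox replicates 1 and 2. Replicate 3 lay below the WT range for AT2G36145 and AT3G19030 and inside it for AT5G01015.

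The 28 members without a listed gene had WT means of 6.06 to 13.38, beside 4.51 to 12.6 for the 36 with a gene. The probe set 252502_at, named after its values were seen, was the member with the greatest distance: 4.01, 4.19 and 9.55 in TOC1-ox, against 8.56, 9.07 and 9.86 in WT. Its replicate 3 lay inside the WT range, 5.45 above the mean of replicates 1 and 2. The probe set 256894_at, named in the same way, had 1.99, 2.04 and 5.85 in TOC1-ox and 6.20, 6.12 and 5.86 in WT, so that replicate 3 matched WT replicate 3 within 0.01. Among these 28, replicate 3 lay above the highest WT value in 6, inside the WT range in 8 and below the lowest WT value in 14.

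The rule bounded TOC1-ox replicate 3 only from below, so its position above that bound varied freely. It lay above the highest WT value for 12 members (18.8%, against 21.8% of all probe sets), inside the WT range for 15 (23.4%, against 54.7%) and below the lowest WT value for 37 (57.8%, against 23.5%). Those 37 are also the members for which all TOC1-ox values lay below all WT values, which held for 10.8% of all probe sets. Because the rule placed 2 of the 3 TOC1-ox values below WT, nothing is read from that difference. Set on a scale where 0% is the mean of TOC1-ox replicates 1 and 2 and 100% is the WT mean, replicate 3 stood at 52.2% to 165%, with a median of 85.2%. It was above 100% for 19 members and under 75% for 16. Against WT replicate 3 alone, TOC1-ox replicate 3 differed by a median of -0.35 log2, beside 0.03 over all probe sets.

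**Figure D2:**
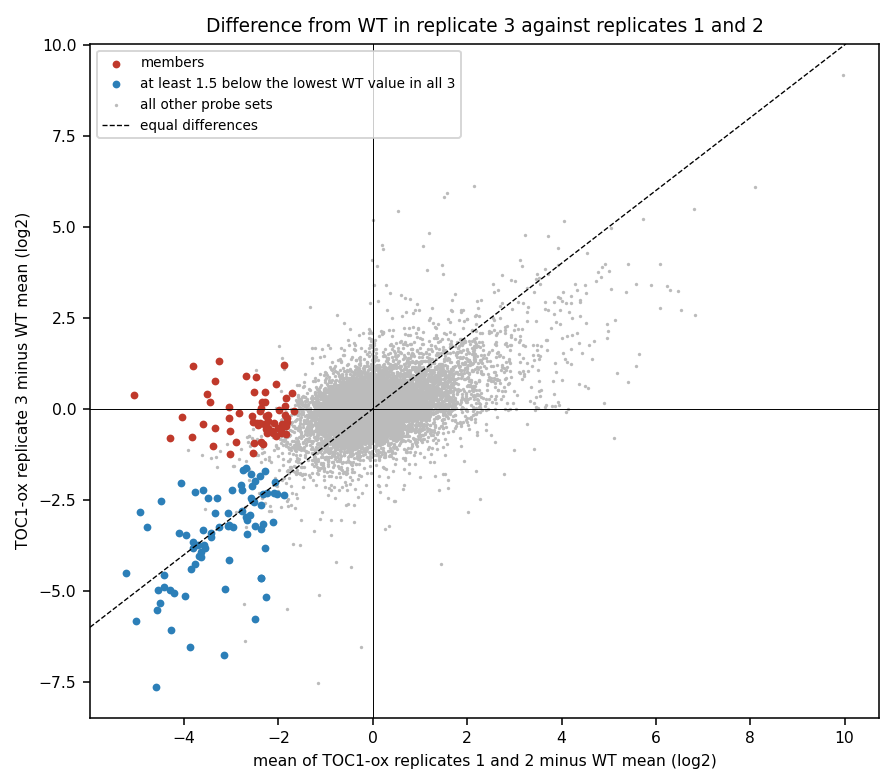
Difference from the WT mean (log2) in TOC1-ox replicate 3 (vertical axis) against the mean of TOC1-ox replicates 1 and 2 (horizontal axis), 1 point per probe set; members are red and the 79 probe sets (without the 7 left-out items) at least 1.5 below the lowest WT value on all 3 TOC1-ox arrays are blue. The members run from -5.07 to -1.66 on the horizontal axis and from -1.23 to 1.33 on the vertical axis, whereas blue points lie around and on both sides of the line of equal differences.

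The members form 1 end of a continuous range rather than a separate cluster of values. With the same 7 items left out, TOC1-ox replicates 1 and 2 were both at least 1.5 below the lowest WT value at 206 probe sets. In replicate 3, 27 of these were at or above the lowest WT value, 37 lay up to 0.5 below it, 38 between 0.5 and 1, 25 between 1 and 1.5, 22 between 1.5 and 2, and 57 more than 2 below it. The first 2 groups are the 64 members. In the opposite direction, with those items left out as well, 449 probe sets had replicates 1 and 2 both at least 1.5 above the highest WT value, and 167 of them had replicate 3 no more than 0.5 above it.

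**Figure D3:**
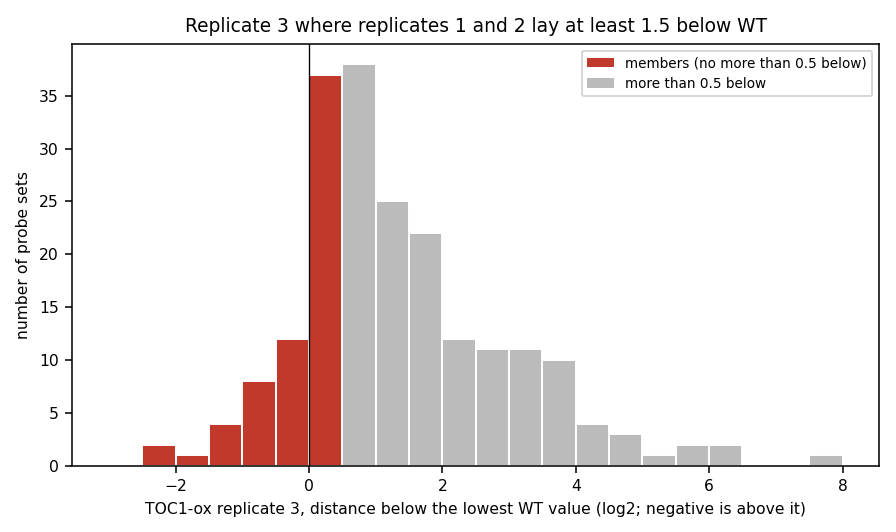
Number of probe sets (vertical axis) by the distance of TOC1-ox replicate 3 below the lowest WT value (horizontal axis, log2, bins of 0.5) for the 206 probe sets (without the 7 left-out items) where TOC1-ox replicates 1 and 2 both lay at least 1.5 below it; members are red and the others grey. The bars on either side of the limit hold 37 and 38 probe sets, with no gap between them.

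The probe sets next to the thresholds had nearly the same values on both sides. For the distance of replicates 1 and 2 from WT, 263946_at, 266072_at and AT2G38330 were just inside, at 1.5, 1.5 and 1.51 for the nearer of the replicates, and 257626_s_at, AT2G20670 and 256215_at just outside, at 1.47, 1.47 and 1.45. For the limit on replicate 3, AT3G16560, AT3G57010 and AT5G42070 were just inside, each 0.49 below the lowest WT value, and AT3G29240, AT5G51110 and 260431_at just outside, each 0.52 below it.

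The WT arrays also varied more at the members than over all probe sets. Their range over 3 arrays had a median of 0.53, against 0.29 over all probe sets, and exceeded 1 for 17 members (26.6%, against 6.77%). WT replicate 3 was the highest WT array at 27 members (42.2%, against 26.3% of all probe sets), and WT replicate 1 was the lowest at 28 (43.8%, against 23.3%). Of all probe sets 36.7% had a WT mean under 4, where differences are compressed, against 0 members. The shares over all probe sets include these dim ones, and no comparison at like level was made. Both replicate 3 arrays lay above WT replicates 1 and 2 at 13 members. At 11 others WT fell from replicate 1 to replicate 3, and TOC1-ox replicate 3 lay below all WT values. The shares of these counts over all probe sets were not taken, so nothing is read from them. The rule makes replicate 3 the highest TOC1-ox array at every member. At 254550_at WT replicate 3 was the highest WT array as well. The values were 2.84, 3.37 and 8.10 in TOC1-ox and 6.04, 5.76 and 8.97 in WT. This probe set had the widest WT range of all members, 3.21. TOC1-ox replicates 1 and 2 differed from each other by a median of 0.15 at the members, against 0.09 over all probe sets.

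The comparison of the groups with all 6 arrays was fitted with limma across all probe sets. It called 405 of 22746 (1.78%) at an adjusted p under 0.05, of which 160 were lower in TOC1-ox (0.703%), and 0 of the 64 members were among them. At an unadjusted p under 0.05, limma found 35 of the 64 and 16.4% of all probe sets. The fitted difference of the members was -3.25 to -0.85 with a median of -1.65, and its standard error was 0.37 to 1.75 with a median of 0.65. For GSTU20 the TOC1-ox values averaged 9.39 ± 2.37 and the WT values 11.37 ± 0.44 (SD, n = 3 each), so the spread within TOC1-ox was larger than the difference of -1.98. PSB27 averaged 11.27 ± 1.13 in TOC1-ox and 12.60 ± 0.07 in WT (SD, n = 3 each), a difference of -1.33 that was close to the TOC1-ox spread.

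When TOC1-ox replicate 3 was left out, limma called 62 of the 64 members, all lower, beside 13% of all probe sets (2955) in either direction and 5.94% (1352) lower in TOC1-ox. The median standard error of the members was then 0.23, and their median difference was -2.34. Only AT4G17245 and 254550_at missed the threshold (limma, adjusted p = 0.0592 and 0.118), each with a WT array far from the others. The rule selected on these same arrays, so the count follows from the choice of members and supports nothing further. With the arrays numbered 1 and 2 only, limma called 9.68% of all probe sets, 4.53% lower in TOC1-ox, and 46 of the 64 members. With all 6 arrays and the arrays numbered 3 as a batch term, it called 2.5% of all probe sets, 1.12% lower in TOC1-ox, and 1 member, AT3G57010 (difference -1.87, limma adjusted p = 0.0423). With array weights, which put the least weight on the arrays numbered 3, it called 27.2% of all probe sets, 14.5% lower in TOC1-ox, and 63 members. The counts of 46 and 63 rest mainly on TOC1-ox replicates 1 and 2, which the rule selected on, so they too follow from the choice of members.

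**Figure D4:**
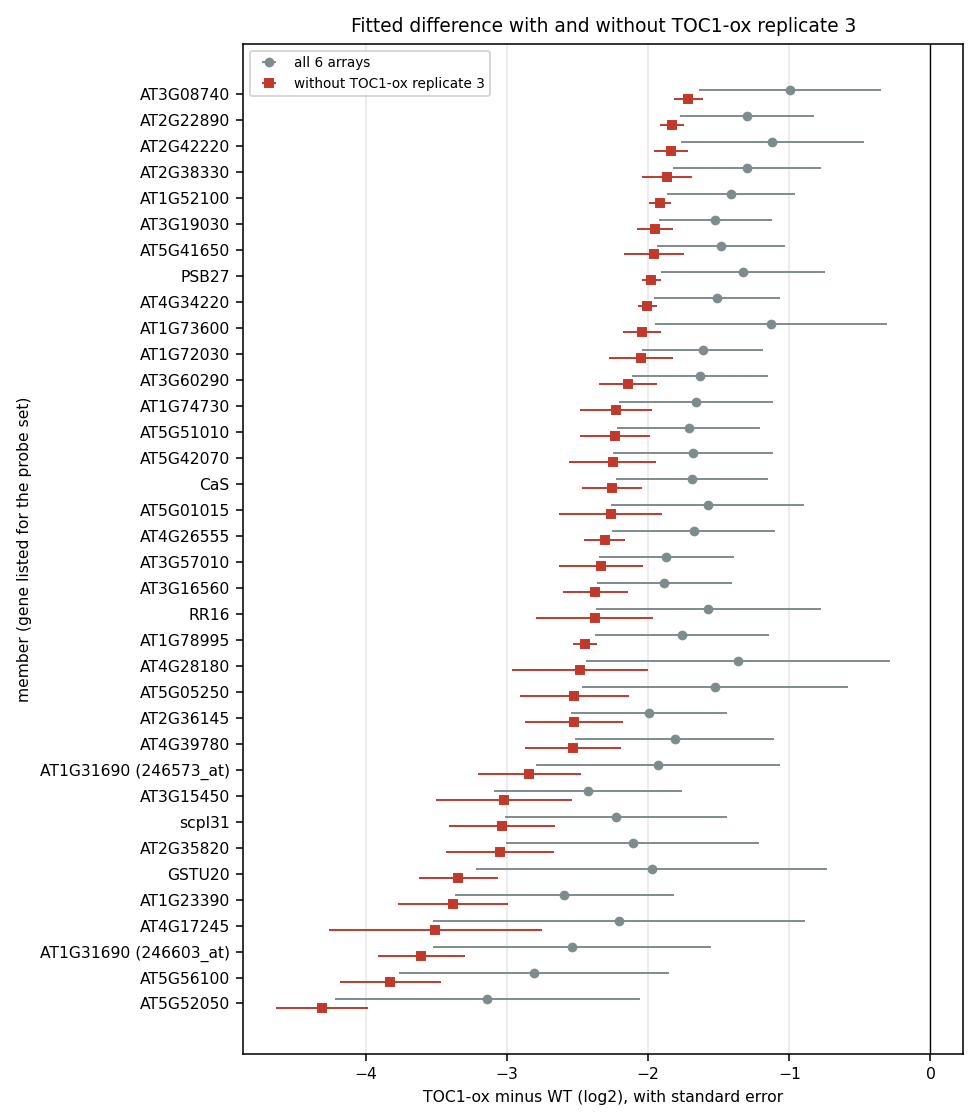
Fitted TOC1-ox minus WT difference (horizontal axis, log2, bars are limma standard errors) of the 36 members with a listed gene (vertical axis), with all 6 arrays in grey and without TOC1-ox replicate 3 in red. The grey points run from -3.14 to -0.996 with wide bars, and the red points lie farther left, from -4.31 to -1.71, with shorter bars in every row.

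Chlorophyll synthesis genes, none of which is a member, were looked at because of the 5 chloroplast genes among the members; they were chosen after their values were seen. Of 25 genes on the list, 8 were measured. With all arrays limma called 0 of the 8 (2 at an unadjusted p under 0.05), and their median difference was -0.52, against 1.78% called over all probe sets. Without TOC1-ox replicate 3, it called 5 lower (GSA1, PORB, CHLM, HEME1 and HEMB1) and 0 higher, with a median of -0.93, against 5.94% of all probe sets called lower.

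HEME1, a uroporphyrinogen decarboxylase gene, had 8.45, 8.32 and 10.36 in TOC1-ox and 9.49, 9.32 and 9.34 in WT. HEMB1, which encodes 5-aminolevulinate dehydratase, had 10.25, 10.28 and 11.28 in TOC1-ox and 11.16, 11.01 and 11.04 in WT. CHLM, the magnesium protoporphyrin methyltransferase gene, had 10.16, 10.17 and 11.39 in TOC1-ox and 11.43, 11.60 and 11.35 in WT. In each, replicates 1 and 2 of TOC1-ox lay below WT and replicate 3 lay inside or above the WT range, as it did at 27 of the 64 members, and the distance below WT stayed under the 1.5 that the rule asked for. PORB, the protochlorophyllide oxidoreductase gene, had 9.79, 10.21 and 10.98 in TOC1-ox and 11.34, 11.58 and 11.69 in WT, with all TOC1-ox arrays below WT. CHLI2, a subunit gene of magnesium chelatase, had 9.37, 9.07 and 10.35 in TOC1-ox and 9.77, 9.7 and 9.28 in WT, so that replicate 1 lay inside the WT range and replicate 3 above it. Of 36 photosystem and antenna genes 6 were measured and 0 were members. PSBY had 11.62, 11.57 and 12.63 in TOC1-ox and 12.05, 11.98 and 11.88 in WT, again with replicate 3 high. LHCB4.3, a minor antenna protein gene, was higher on all 3 TOC1-ox arrays, at 10.75, 10.38 and 11.06, against 6.71, 6.64 and 6.57 in WT (limma, difference 4.09, adjusted p = 0.00639).

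**Figure D5:**
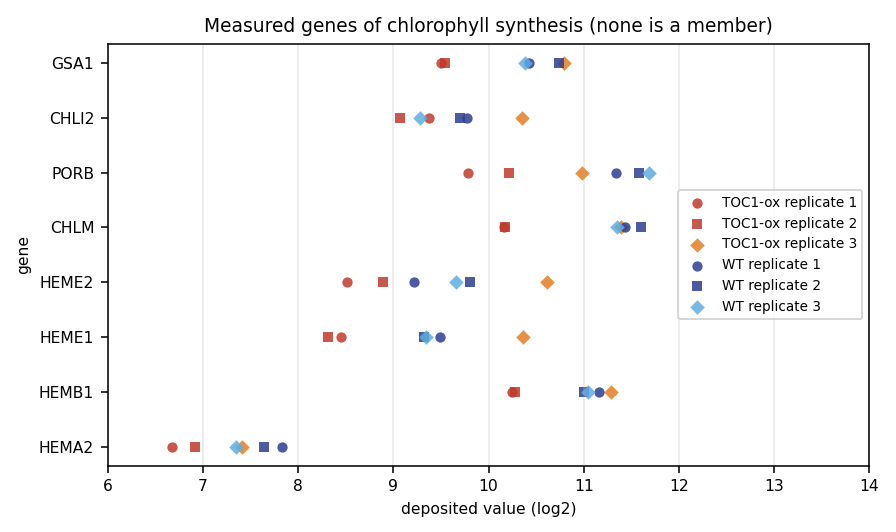
Deposited log2 value (horizontal axis) of the 8 measured chlorophyll synthesis genes (vertical axis), 1 point per array, with TOC1-ox replicates 1 and 2 in red, TOC1-ox replicate 3 in orange and WT in blue. The orange point of HEME1 lies at 10.36, to the right of all WT points, and its red points at 8.45 and 8.32 lie to the left of them.

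Over all 34 gene lists drawn up for the seedling's pathways and cell types, 105 of 1014 entries could be measured under a name. Only the cytokinin response and aliphatic glucosinolate lists held a member, 1 each. The clock list held 2 measured genes, GI and COR27, and no member. GI had 1.90, 1.90 and 1.91 in TOC1-ox and 2.01, 1.94 and 1.89 in WT, too dim to show a change. None of the named probe sets reads TOC1, so its overexpression could not be checked on any array. COR27, whose protein acts on the clock, was low on all 3 TOC1-ox arrays and so lay outside the rule. It had 7.19, 7.17 and 6.4 in TOC1-ox and 9.88, 9.99 and 9.63 in WT (limma, difference -2.92, adjusted p = 0.0213).

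Genes beside the members on the chromosome were not members themselves. The annotation names 37 probe sets for genes directly next to the 35 member genes, and 0 of them were members. Members are only 0.281% of all probe sets, so a count of 0 among 37 says nothing about neighbours. With all 6 arrays limma called 0 of the 37, against 1.78% of all probe sets. At an unadjusted p under 0.05, limma found 9 of the 37, against 16.4% of all probe sets. Without TOC1-ox replicate 3 it called 1 lower and 1 higher, against 13% of all probe sets in either direction. The median difference of the 37 was then -0.01. AT1G31710, the copper amine oxidase gene next to AT1G31690, is read by 2 probe sets. The brighter had 8.51, 8.40 and 8.26 in TOC1-ox and 7.16, 7.58 and 8.26 in WT. Replicates 1 and 2 of TOC1-ox lay just above WT replicate 3 there. The other had 5.65, 5.83 and 6.16 in TOC1-ox and 4.31, 5.14 and 6.13 in WT, with replicates 1 and 2 inside the WT range. With all 6 arrays limma called neither (adjusted p = 0.326 and 0.61). GSTU21, the neighbour of GSTU20, lay at the bottom of the scale on every array, between 2.34 and 2.44. The member genes were spread over the chromosomes, with 10, 6, 6, 5 and 8 on chromosomes 1 to 5. Chromosome 1 held 28.6% of them, against 25.8% of all named genes on the array.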

How the data were processed

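The deposited values are log2 expression values of 22810 probe sets on 6 arrays, which the authors made with GCRMA, per the submitters' processing notes; those notes also name limma and give no versions. GCRMA corrects background by probe sequence, quantile-normalizes and summarises probes, and it presses dim values together (36.5% of values lay under 4). Array medians were 6.17 to 6.27.

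Groups came from the sample titles, and 64 control probe sets were left out. The other 22746 entered 1 limma fit of TOC1-ox minus WT (limma 3.58.1, R 4.3.3, group as the only term, two-sided, Benjamini-Hochberg over all of them, calls at an adjusted p under 0.05, 5.02 degrees of freedom). The procedure was also run on simulated arrays of equal spread. None of those arrays stood apart from its group, so that run does not bear on TOC1-ox array 3. The members, the gene lists and the tests were chosen with earlier results of these data known, and no list or member set was tested. Given array by array by rule were the 16 members with a gene and the greatest distance below WT, members on a gene list, and the probe sets beside each threshold; other members were to be given by role and distance, so those shown with array values were added after their values were seen. A list symbol that matched a different gene of the same name was dropped. Genes were named from the platform annotation, with symbols updated through RefSeq's TAIR10.1 gene table. Coordinates are left out because the array's build is unnamed, and a planned promoter motif count was not run because no promoter sequence was used here. The number of arrays limits the precision. Figures were drawn with matplotlib 3.10.9.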

Additional observations from a re-analysis of the deposited data

How the results depend on the processing

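The number of members followed the thresholds. A distance of at least 1 or 2 in place of 1.5 gave 205 or 25 members, and a limit on TOC1-ox replicate 3 of 0.25 or 1 in place of 0.5 gave 41 or 102. Set against the WT mean in place of the lowest WT value the rule gave 74, of which 42 were among the 64. Quantile normalization gave 67 with all 64 among them, and centring the arrays gave 64, of which 61 were shared. Leaving out probe sets that averaged under 4 or 6 kept 63 or 46. With single arrays left out, the rule gave 61 to 95 members.

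Calls over all probe sets numbered 405 by limma with all arrays. They were 248 after quantile normalization, 852 and 641 where probe sets averaging under 4 and 6 were left out, 262 with a robust prior, 6182 with array weights and 2201 with the arrays numbered 1 and 2 only. With single arrays left out they ranged from 8 (without WT replicate 2) to 2955 (without TOC1-ox replicate 3). Higher calls were 60.5% of all, but 46.5% with array weights, 46.3% without WT replicate 3 and 71.1% without TOC1-ox replicate 1. The cause of these shifts was not tested.

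Members called numbered 0 by limma with all arrays. They were 1 without probe sets averaging under 6 (261315_at, difference -2.11, adjusted p = 0.0475), 63 with array weights, 1 with the batch term and 46 with the arrays numbered 1 and 2 only. With single arrays left out they were 0 to 62, and above 0 only without TOC1-ox replicate 3. The counts of 46, 62 and 63 rest mainly on TOC1-ox replicates 1 and 2, which the rule selected on, and support nothing further. With the replicate number as a block (replicate block), limma called 0 of all probe sets (4317 at an unadjusted p under 0.05) and 0 members (28 at that level). Same-numbered arrays deviated together at r = 0.30, -0.01 and 0.08 for numbers 1, 2 and 3, so the deviations do not pair the arrays at every number. Whether the arrays numbered 3, both with high spike-ins, form a batch was not tested beyond the batch term and the fit without them. For the 36 members with a gene, 597 differences over 17 alternatives ran from -4.58 to -0.60 with 0 changes of sign, and limma's adjusted p from 0.00206 to 0.995. TOC1-ox replicates 1 and 2 lay far below WT by choice, so the constant sign adds nothing.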

Other observations

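The genes given here were picked after their values were seen. SBPASE, sedoheptulose bisphosphatase of the carbon-fixing Calvin cycle, had 11.82, 11.71 and 12.76 in TOC1-ox and 12.82, 12.67 and 12.46 in WT, so replicates 1 and 2 lay below WT and replicate 3 within it. Its difference was -0.55 with all arrays (limma, adjusted p = 0.488) and -0.88 without TOC1-ox replicate 3 (limma, adjusted p = 0.0234). Of the 4 measured genes of carbon fixation and photorespiration it was the only one called without that array. At HPR, a photorespiratory enzyme gene, replicate 3 lay among the others (13.35, 13.3 and 13.31 in TOC1-ox), and at PRK it was the lowest array (12.94, 12.82 and 12.59 in TOC1-ox). LYC, the lycopene cyclase gene of carotenoid synthesis, had 7.2, 7.0 and 7.94 in TOC1-ox and 8.22, 8.41 and 8.63 in WT, with all TOC1-ox arrays below WT and replicate 3 the nearest.

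STOMAGEN, a mesophyll peptide that promotes stomata, had 9.64, 9.41 and 10.09 in TOC1-ox and 11.26, 10.83 and 10.67 in WT. It was the brightest of the 4 measured stomatal lineage markers and made up most of their summed level. SPCH, which starts the lineage, had 5.09, 4.86 and 6.06 in TOC1-ox and 5.41, 5.47 and 5.4 in WT, so replicate 3 was the highest array there.

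Among the genes next to members, AT1G03610, beside PSB27, was lower on all 3 TOC1-ox arrays, at 7.53, 7.83 and 7.71, against 8.6, 8.33 and 8.41 in WT. Its difference was -0.76 with all 6 arrays (limma, adjusted p = 0.0538). Without TOC1-ox replicate 3 it was also -0.76 (limma, adjusted p = 0.0382). AT1G78990, beside AT1G78995, went the other way, at 5.4, 5.58 and 4.02 in TOC1-ox and 2.84, 2.81 and 4.02 in WT. Its arrays numbered 3 read alike in both groups. The difference was 1.77 with all 6 arrays (limma, adjusted p = 0.226) and 2.26 without TOC1-ox replicate 3 (limma, adjusted p = 0.0463).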
